A study of Mus musculus with 36 samples.

Results

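Iron absorption and storage were followed along the mouse intestine through 8 genes, Cybrd1, Slc11a2, Slc40a1, Heph, Fth1, Ftl1, Tfrc and Hmox1. Every probe set on 3 array sets (A, B and C) whose annotation gave one of these symbols alone was taken, with older symbols brought up to date. This gave 27 of 36899 probe sets, of which 18 of 36701 were tested and 9 were Tfrc control probe sets that the array maker places on every set. The 18 stood for 7 of the 15964 genes on the arrays. Ftl1 had no probe set of its own, since the nearest candidate is annotated to Ftl1 and to Ftl1-ps2 together, and that probe set is described as shared. The samples were duodenum, jejunum, ileum and colon of 8-week-old male CD-1 mice, an outbred stock, on standard chow. All groups shared stock, sex, age and diet. Each segment had 3 samples, each a pool of 10 mice. The tissue was the whole segment and the molecule was total RNA, so that fewer cells of a type and less RNA per cell cannot be told apart in any value below.

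Dietary iron enters the body mainly in the first part of the small intestine. Ferric iron is reduced at the brush border of the enterocyte, carried in by a proton-coupled transporter, and then either stored in ferritin or passed out of the cell by ferroportin, after which a ferroxidase makes it ready for transferrin. Haem iron is freed inside the cell by haem oxygenase, while the transferrin receptor takes up transferrin-bound iron from the blood side, mostly in crypt cells.

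The upstream sequences of 3 of these genes are shown because of where their means were highest. Cybrd1 on all 3 of its probe sets and Fth1 on 4 of 5 had the duodenum highest, and Tfrc had it on none. They hold the 250 bases before a transcription start in the RefSeq promoter table (build GRCm38.p6), which matched 4 of the 8 genes (Cybrd1, Fth1, Ftl1 and Tfrc). For Fth1 and Tfrc the table lists more than 1 start, and for each of them 1 is shown. Capitals mark the letters ACGTG or GCGTG, the core that hypoxia-inducible factors bind, read on both strands, so that a match on the opposite strand appears as CACGC or CACGT.
Cybrd1, chr2:71117804-71118053, plus strand: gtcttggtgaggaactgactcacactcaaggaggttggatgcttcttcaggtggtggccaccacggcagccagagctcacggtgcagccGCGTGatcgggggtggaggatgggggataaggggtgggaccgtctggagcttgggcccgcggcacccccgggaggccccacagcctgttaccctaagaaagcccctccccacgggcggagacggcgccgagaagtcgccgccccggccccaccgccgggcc
Fth1, chr19:9982396-9982645, plus strand: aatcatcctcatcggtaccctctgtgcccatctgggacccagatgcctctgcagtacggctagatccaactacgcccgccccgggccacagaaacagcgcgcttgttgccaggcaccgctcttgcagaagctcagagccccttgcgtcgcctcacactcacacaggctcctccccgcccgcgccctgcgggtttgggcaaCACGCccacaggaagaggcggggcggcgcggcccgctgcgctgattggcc
Tfrc, chr16:32608646-32608895, plus strand: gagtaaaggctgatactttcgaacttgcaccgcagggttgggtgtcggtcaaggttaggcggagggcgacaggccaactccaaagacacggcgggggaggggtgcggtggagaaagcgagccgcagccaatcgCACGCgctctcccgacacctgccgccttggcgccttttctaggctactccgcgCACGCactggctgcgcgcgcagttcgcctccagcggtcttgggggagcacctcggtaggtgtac

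Such a core was present in 38.6% of the 32851 promoters of the table. Cybrd1 had 1, Fth1 had 1 and Tfrc had 2 in the windows shown, while the other start had 3 for Tfrc and 0 for Fth1, and Ftl1 had 1. The letters TGACNNNGC, the core of the antioxidant response element that Nrf2 binds, occurred in 10.2% of all promoters and in 0 of the 6 windows of these 4 genes. A core of this kind is a match of letters and says nothing on its own about a factor in these tissues.

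Arrays had been scaled by the authors to a trimmed mean of 200 to 200.2 intensity units, with array medians between 48.6 and 110.5. Precision is limited by the number of arrays, and p-values measure the spread between pools. The 18S rRNA control split the samples within 2 segments. On set B it read 851 to 3485 in jejunum 2 and 3 and in ileum 1 and 3, against 14302 to 62810 in the other 8 samples, so that the jejunum and the ileum each had 1 sample with high signal. Fits with the 8 high samples alone therefore take the spread of those single samples from the other segments, and their values are given beside the results they change. The set C array of duodenum 3 carries jejunum in its source name and duodenum in its title, and it was kept as duodenum. On that array the pancreatic gene Cpa1 read 13113, beside 14438 and 23863 on the other duodenal arrays and 26.6 to 41.9 on the jejunal ones, and the stomach gene Gkn3 read 21071, beside 29031 and 46645 on the other duodenal arrays and 46.3 to 173 on the jejunal ones. Both readings go with its title. The ratio of 3' to 5' actin signal also moved with segment, and did so on sets A, B and C alike. Duodenal arrays had 1.41 to 1.84 (set A), 1.62 to 1.81 (set B) and 1.48 to 2.03 (set C). Ileal arrays were lower, with 1.14 to 1.20 (set A), 1.16 to 1.21 (set B) and 1.01 to 1.16 (set C). What part this ratio had in the results was not tested.

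Of the 7 measured genes, 4 differed between segments, and in every difference involving the duodenum that passed the test the duodenum was higher. These were Cybrd1, the brush-border ferric reductase, Slc11a2, the proton-coupled iron importer DMT1, Slc40a1, the iron exporter ferroportin, and Fth1, the heavy chain of ferritin. Heph, Tfrc and Hmox1 passed in none of the 6 pairwise comparisons, and at an unadjusted p below 0.05 they had 0 of 6, 1 of 24 and 1 of 12 differences over their probe sets. A probe set is called here at an adjusted p below 0.05 in limma over all 36701 probe sets, and differences are on the log2(intensity + 16) scale. Between duodenum and jejunum 7 of 18 probe sets (38.9%) were called, all higher in the duodenum, where 0.924% of all probe sets were called and 0.58% were called as higher. Between duodenum and ileum 9 of 18 (50%) were called, all higher in the duodenum, beside 1.83% of all probe sets and 0.97% in that direction. Between duodenum and colon 7 of 18 were called, all higher in the duodenum, beside 5.99% and 2.65%. The median difference over the 18 probe sets was 0.66 for duodenum minus jejunum, 1.17 for duodenum minus ileum and 0.48 for duodenum minus colon, against 0.06, -0.02 and -0.03 over all probe sets.

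Among jejunum, ileum and colon fewer of these probe sets were called. For jejunum minus ileum 2 of 18 probe sets were called, Fth1 higher and Slc40a1 lower in the jejunum, beside 2.78% of all probe sets. For jejunum minus colon 2 were called (11.1%), Slc11a2 higher and Slc40a1 lower in the jejunum, a share close to the 9.19% of all probe sets. For ileum minus colon 2 were called, Slc40a1 and Fth1, both lower in the ileum, beside 3.28% of all probe sets in either direction and 1.55% in that direction. Some difference among the 4 segments was called for 10 of 18 probe sets (55.6%), beside 8.82% of all. The 3 comparisons with the duodenum share its samples.

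**Figure D1:**
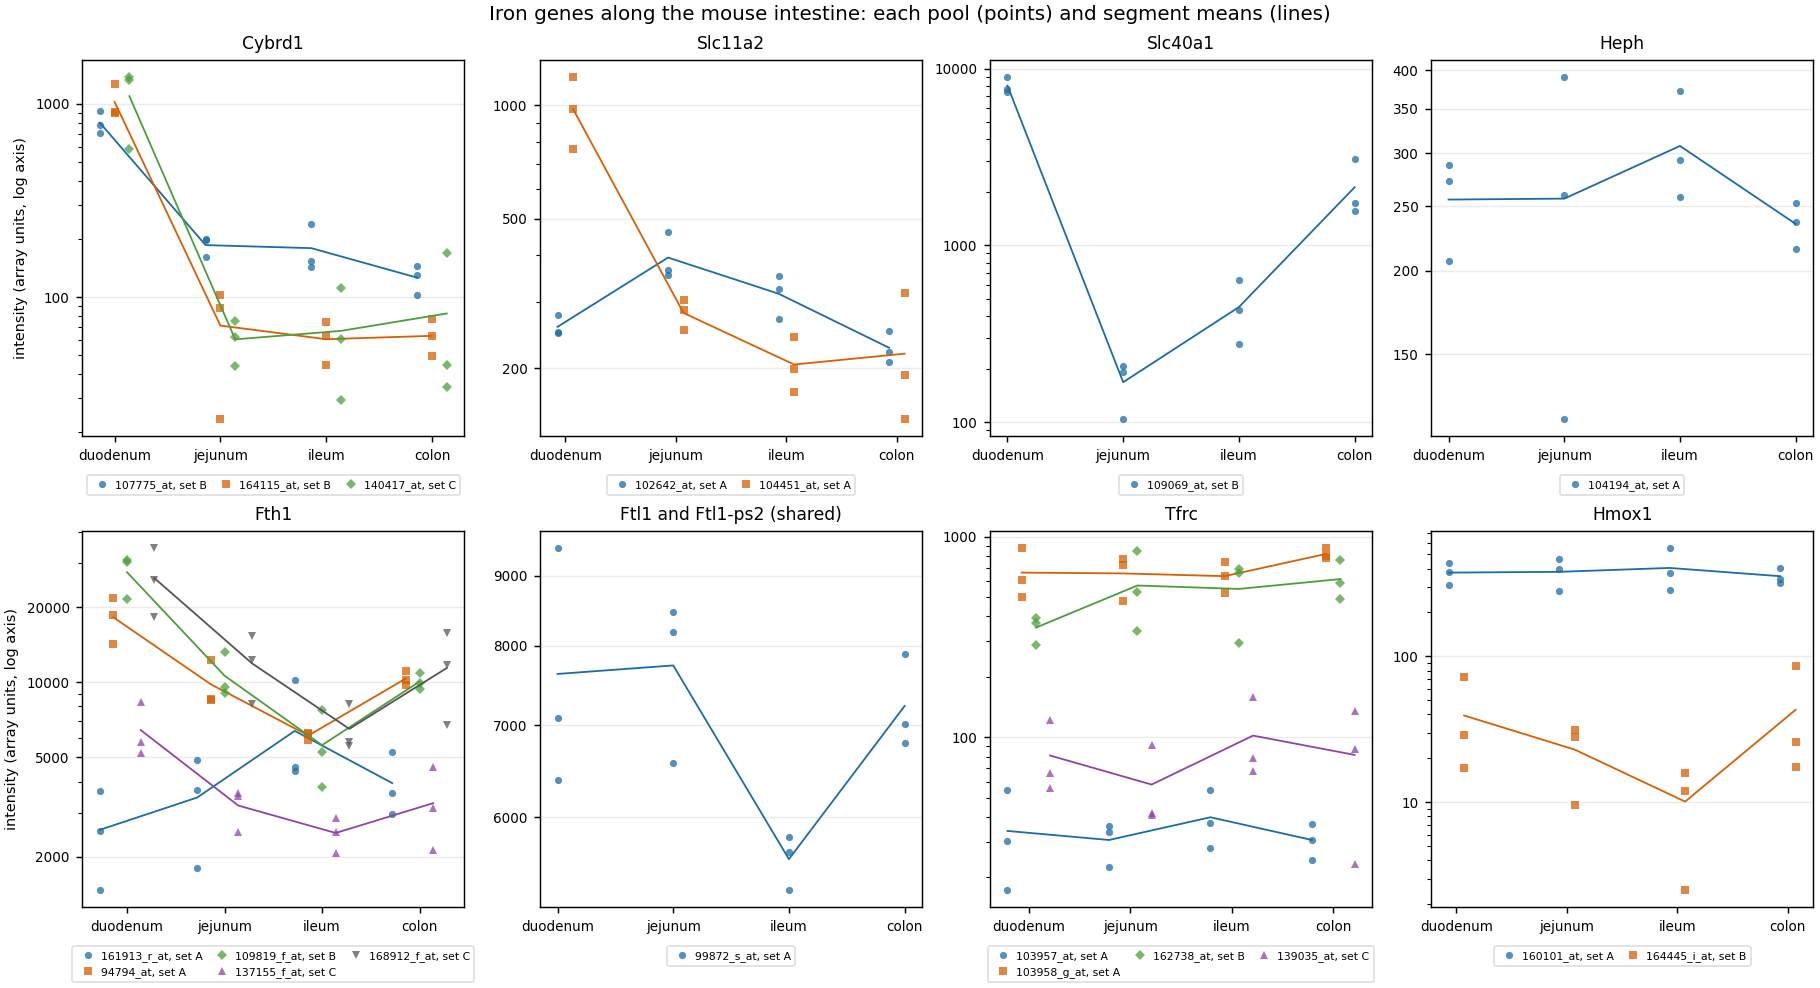
Intensity (array units, log axis, scaled per panel) of every tested probe set of the iron genes in each of the 4 segments, with points for the 3 pools and lines through segment means. Cybrd1, Slc40a1, 1 of 2 Slc11a2 probe sets and 4 of 5 Fth1 probe sets have their highest mean in the duodenum, Slc40a1 has its next highest in the colon, the 4 segments of Hmox1 160101_at overlap, and those of Heph do except ileum and colon.

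Cybrd1 encodes duodenal cytochrome b, which reduces ferric iron at the brush border, and it was higher in the duodenum than in every other segment on all 3 of its probe sets. On 164115_at (set B) it read 896, 1271 and 903 in the duodenum, 23.4, 103 and 88 in the jejunum, 62.9, 74.3 and 44.6 in the ileum and 49.6, 62.7 and 77 in the colon. No duodenal pool came near the range of the other 9 samples, and the other 3 segments overlapped each other. The difference was 3.71 ± 0.41 (SE) for duodenum minus jejunum (adjusted p = 9.42e-05), 3.76 ± 0.41 for duodenum minus ileum (adjusted p = 4.01e-05) and 3.71 ± 0.41 for duodenum minus colon (adjusted p = 1.75e-05). No fold is given for this probe set, since outside the duodenum it was above its array median in 1 jejunal sample alone.

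The other Cybrd1 probe sets also had the duodenum highest. On 107775_at (set B) the duodenum averaged 799 ± 107, the jejunum 186 ± 20.7, the ileum 179 ± 52.8 and the colon 126 ± 21.6 (SD, n = 3 each). The duodenal mean was 4.3-fold that of the jejunum, 4.46-fold that of the ileum and 6.34-fold that of the colon. On 140417_at (set C) the means were 1096 ± 445 in the duodenum, 60.5 ± 15.7 in the jejunum, 66.9 ± 41.1 in the ileum and 82.3 ± 74.7 in the colon. The wide duodenal spread on set C came from duodenum 3, the array with the conflicting source name, which read 582 against 1373 and 1332 in duodenum 1 and 2. Even so that array lay above all 9 samples of the other segments. Without it the difference on 140417_at was 4.18 for duodenum minus jejunum (adjusted p = 0.00451), against 3.78 with it (adjusted p = 0.00304). Over the 12 samples the 3 probe sets correlated with r of 0.94 to 0.96, which is a description of profiles that turn on the duodenal pools.

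No difference among jejunum, ileum and colon passed the test for Cybrd1. The largest of those differences on 107775_at was 0.51 for jejunum minus colon, with a 95% interval of -0.06 to 1.08 and an adjusted p of 0.321. With samples of high 18S signal alone, 164115_at kept its calls against the jejunum (4.70, adjusted p = 0.000974) and the ileum (3.51, adjusted p = 0.00308). In that fit 107775_at against the ileum was 1.66 (adjusted p = 0.0519, against 2.09 with all samples), and 140417_at was 4.11 against the jejunum (adjusted p = 0.128) and 3.03 against the ileum (adjusted p = 0.146), with 1 sample each in those segments.

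Slc11a2 encodes DMT1, the importer that carries ferrous iron across the apical membrane, and its 2 probe sets, both on set A, had different profiles. On 104451_at the gene read 768, 1189 and 980 in the duodenum, 303, 286 and 253 in the jejunum, 173, 199 and 242 in the ileum and 147, 192 and 318 in the colon. The lowest duodenal pool was above the highest of the other 9 samples. The difference was 1.73 ± 0.25 for duodenum minus jejunum (3.49-fold, adjusted p = 0.00157), 2.16 ± 0.25 for duodenum minus ileum (4.78-fold, adjusted p = 8.87e-05) and 2.13 ± 0.25 for duodenum minus colon (4.48-fold, adjusted p = 4.12e-05). With samples of high 18S signal alone the difference from the jejunum was 1.62 with an adjusted p of 0.196, where the jejunum had 1 sample.

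The probe set 102642_at read 249, 277 and 248 in the duodenum, 365, 355 and 462 in the jejunum, 326, 270 and 352 in the ileum and 252, 208 and 221 in the colon. Here the jejunum was highest, and the duodenum lay close to the colon. Duodenum minus jejunum was -0.57 (95% interval -0.95 to -0.20, adjusted p = 0.182), and jejunum minus colon was 0.75 ± 0.18 (adjusted p = 0.0123), a call that held in 17 of 22 alternative settings. Without jejunum 3, colon 2 or colon 3 its adjusted p was 0.0507 to 0.0587, and with samples of high 18S signal alone it was 0.156. The 2 probe sets correlated with r = -0.18 over the 12 samples. Slc11a2 is known to be transcribed into forms with different 3' ends, with and without an iron-responsive element, but which forms these probe sets match is not given in the sources used here.

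Slc40a1 encodes ferroportin, the exporter through which iron leaves the enterocyte on the blood side, and it had the widest range, highest over lowest sample, of all tested members. Its single probe set, 109069_at (set B), read 7407, 7693 and 8952 in the duodenum, 208, 193 and 104 in the jejunum, 431, 276 and 636 in the ileum and 1568, 1730 and 3095 in the colon. The 4 segments did not overlap, and the order was duodenum, colon, ileum, jejunum. The duodenum was 47.7-fold above the jejunum in the means (difference 5.49 ± 0.32, adjusted p = 4.01e-08), 17.9-fold above the ileum (4.19 ± 0.32, adjusted p = 5.72e-07) and 3.76-fold above the colon (1.97 ± 0.32, adjusted p = 0.000778).

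The colon came next. Jejunum minus colon was -3.53 ± 0.32 (adjusted p = 1.42e-06) and ileum minus colon was -2.22 ± 0.32 (adjusted p = 0.000379), which is 12.7-fold and 4.76-fold higher in the colon by the means. These 2 differences and the 3 involving the duodenum were called in all 22 alternative settings, including the fit with samples of high 18S signal alone. The step between the lowest 2 segments was less firm. Jejunum minus ileum was -1.31 ± 0.32 (adjusted p = 0.0358) and was called in 9 of the 22 alternatives. With samples of high 18S signal alone, 1 in each of these segments, it was -0.39 (adjusted p = 0.907), and leaving out any 1 of jejunum 2 or 3, ileum 1 or 3, or a duodenal pool gave an adjusted p of 0.0507 to 0.187. In the settings that lost the call, other than the one with high 18S signal alone, the difference was -1.43 to -1.02, so that its size stayed near that with all samples.

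Heph encodes hephaestin, the membrane ferroxidase that works beside ferroportin, and it passed the test in no comparison. On 104194_at (set A) it read 273, 207 and 288 in the duodenum, 260, 391 and 120 in the jejunum, 294, 258 and 372 in the ileum and 253, 216 and 237 in the colon. The jejunum alone spanned the values of all the other segments, and only ileum and colon did not overlap. Duodenum minus jejunum was 0.12 with a 95% interval of -0.53 to 0.77, duodenum minus ileum was -0.25 (interval -0.90 to 0.40) and duodenum minus colon was 0.10 (interval -0.56 to 0.76). The adjusted p for any difference among segments was 0.843. Whether Slc40a1 and Heph differ in their profiles was not tested.

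Fth1 encodes the ferritin heavy chain, which oxidises iron as it enters the storage shell. It was higher in the duodenum than in the ileum on 4 of its 5 probe sets. On 94794_at (set A) it read 14289, 18628 and 21652 in the duodenum, 12332, 8509 and 8591 in the jejunum, 6293, 5865 and 6201 in the ileum and 9737, 11079 and 10251 in the colon. The duodenum was above every other sample and the ileum below every other sample, while jejunum and colon overlapped. Duodenum minus ileum was 1.55 ± 0.19 (2.97-fold, adjusted p = 0.000246) and duodenum minus colon was 0.79 ± 0.19 (adjusted p = 0.0224). Ileum minus colon was -0.76 ± 0.19 (adjusted p = 0.0466), which held in 9 of 22 alternatives. Duodenum minus colon had an adjusted p of 0.0513 to 0.113 without duodenum 2, duodenum 3 or any 1 colonic pool, and ileum minus colon had 0.0508 to 0.174 without duodenum 2, jejunum 2 or any 1 ileal or colonic pool. Ileum minus colon was -0.82 with samples of high 18S signal alone (adjusted p = 0.151).

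On 109819_f_at (set B) Fth1 read 21614, 30303 and 30764 in the duodenum, 13216, 9071 and 9578 in the jejunum, 7764, 3795 and 5243 in the ileum and 9363, 9943 and 10882 in the colon. The pattern was that of 94794_at, with r = 0.96 between them over the 12 samples. Duodenum minus jejunum was 1.38 ± 0.25 (2.59-fold, adjusted p = 0.0106), duodenum minus ileum was 2.34 ± 0.25 (4.92-fold, adjusted p = 3.01e-05) and duodenum minus colon was 1.44 ± 0.25 (2.74-fold, adjusted p = 0.00146). Jejunum minus ileum was 0.96 ± 0.25 (adjusted p = 0.0495) and was called in 5 of 22 alternatives, its call being lost on leaving out any 1 pool other than ileum 1. It was 1.80 with samples of high 18S signal alone (adjusted p = 0.0825), where ileum minus colon was -1.40 (adjusted p = 0.0182, against -0.90 and 0.0632 with all samples).

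The step from duodenum to jejunum was the weaker part of the Fth1 result. On 94794_at it was 0.89 ± 0.19 (adjusted p = 0.0434) and was called in 5 of 22 alternatives, and on 109819_f_at it was called in 14 of 22. With samples of high 18S signal alone the differences were 0.54 (adjusted p = 0.72) and 1.04 (adjusted p = 0.254), with 1 jejunal sample. Without duodenum 3 they were 0.76 (adjusted p = 0.18) and 1.29 (adjusted p = 0.0713), and leaving out duodenum 2, jejunum 2 or jejunum 3 also ended both calls. After quantile normalization, which pulls the brightest probe sets of all arrays together, duodenum minus colon was 0.43 on 94794_at (adjusted p = 0.136) and 0.72 on 109819_f_at (adjusted p = 0.225). Duodenum minus ileum was called in all 22 alternatives on both probe sets.

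Both set C probe sets of Fth1 also had the duodenum highest and the ileum lowest. On 168912_f_at the duodenum averaged 26120 ± 8120, the jejunum 11910 ± 3550, the ileum 6508 ± 1470 and the colon 11410 ± 4550 (SD, n = 3 each), and duodenum minus ileum was 1.98 ± 0.36 (adjusted p = 0.00953). On 137155_f_at the means were 6436 ± 1680, 3212 ± 611, 2494 ± 397 and 3282 ± 1240 in that order, and duodenum minus ileum was 1.34 ± 0.31 (adjusted p = 0.0414), called in 8 of 22 alternatives. Without the duodenum 3 array those values were 2.21 (adjusted p = 0.0115) and 1.48 (adjusted p = 0.0634), and with samples of high 18S signal alone they were 2.13 (adjusted p = 0.133) and 1.13 (adjusted p = 0.381). The duodenum lay above jejunum and colon on both without overlap, but the adjusted p was 0.064 or more for each. Without ileum 1, duodenum minus ileum had an adjusted p of 0.0503 on 168912_f_at, and on 137155_f_at it had 0.0537 to 0.152 without any 1 duodenal or ileal pool, jejunum 2 or colon 2.

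The fifth Fth1 probe set ran the other way. On 161913_r_at the gene read 1474, 3675 and 2547 in the duodenum, 4876, 1809 and 3688 in the jejunum, 4584, 10176 and 4400 in the ileum and 3593, 5278 and 2972 in the colon. The ileum was highest here, and the 3 ileal pools lay above the 3 duodenal ones. Duodenum minus ileum was -1.29 (95% interval -2.15 to -0.44, adjusted p = 0.161), which reached an adjusted p of 0.0185 with the 18S class as a block. It correlated with the other 4 at r of -0.75 to -0.48. By the array maker's naming, probe sets with f can match a gene family and those with r failed some design rules, and ferritin heavy chain genes have processed copies in the mouse genome, so that signal from relatives cannot be separated here.

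The probe set annotated to Ftl1 and its copy Ftl1-ps2 (99872_s_at, set A) measures the light chain, the other ferritin subunit, without telling the gene from the copy. It read 6382, 7084 and 9430 in the duodenum, 6571, 8183 and 8471 in the jejunum, 5307, 5661 and 5802 in the ileum and 6790, 7894 and 7011 in the colon. The ileum was lowest and did not overlap the other segments. Duodenum minus ileum was 0.43 (95% interval 0.06 to 0.80), with an adjusted p of 0.346, and duodenum minus jejunum was -0.03 (interval -0.41 to 0.34). The adjusted p for any difference among segments was 0.29.

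**Figure D2:**
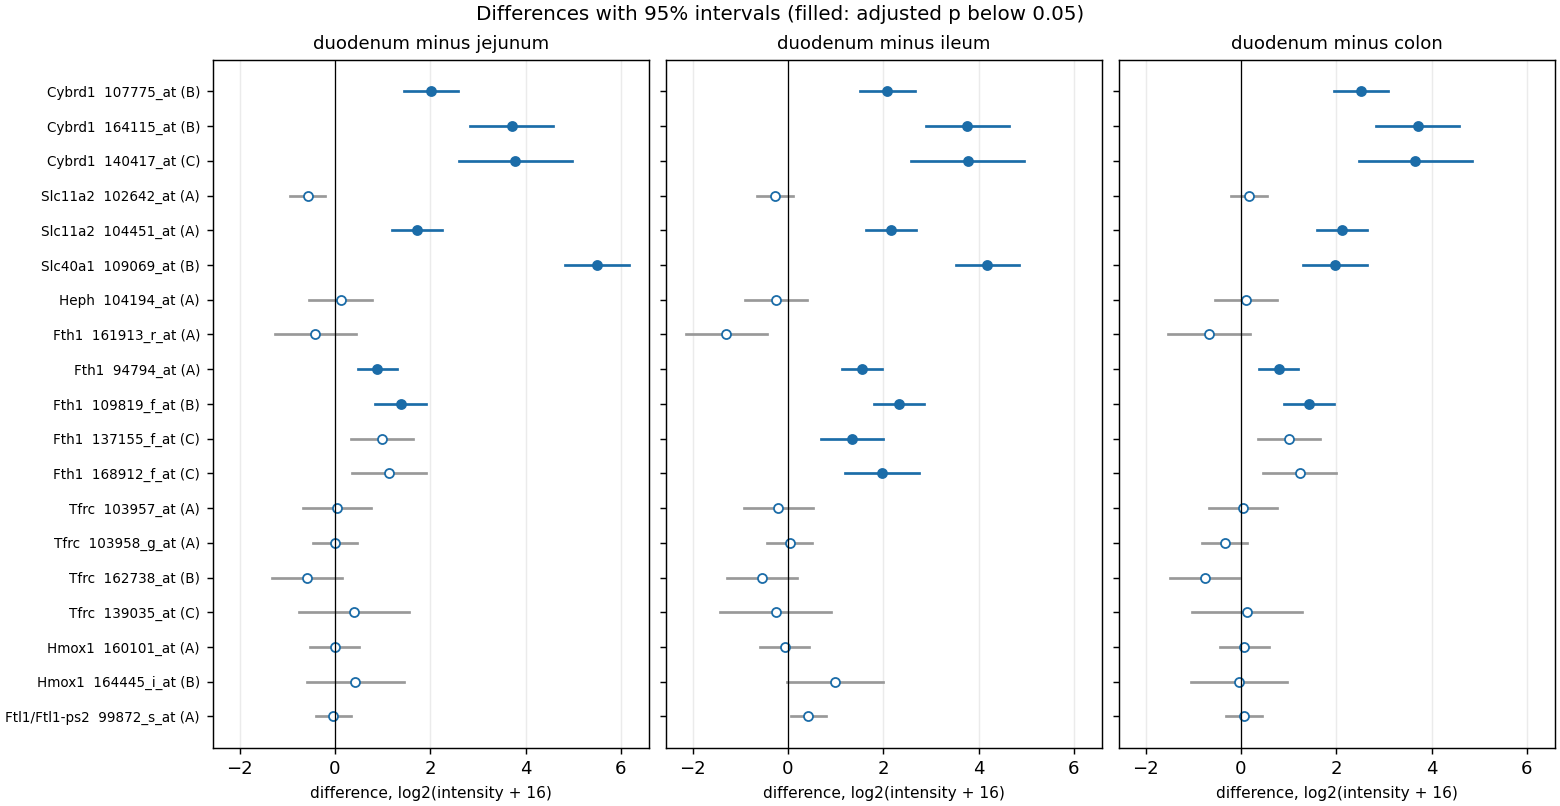
Differences of the duodenum from jejunum, ileum and colon on the log2(intensity + 16) scale for the 18 tested probe sets and the shared ferritin light chain probe set, with 95% intervals. Filled points passed an adjusted p of 0.05, and all of them lie to the right of 0, with Slc40a1 farthest right against jejunum and ileum and Cybrd1 farthest right against colon.

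Tfrc encodes transferrin receptor 1, the entry of transferrin-bound iron, and none of its 4 tested probe sets was called. The brightest, 103958_g_at (set A), read 503, 876 and 606 in the duodenum, 719, 478 and 769 in the jejunum, 523, 637 and 746 in the ileum and 782, 875 and 802 in the colon. The duodenum, jejunum and ileum overlapped fully, and the colon was highest in the mean. Duodenum minus jejunum was 0.00 (95% interval -0.46 to 0.47) and duodenum minus colon was -0.34 (interval -0.81 to 0.13).

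On 162738_at (set B) Tfrc read 394, 373 and 288 in the duodenum, 531, 844 and 337 in the jejunum, 662, 296 and 687 in the ileum and 487, 588 and 768 in the colon. The 3 duodenal pools lay below the 3 colonic ones. Duodenum minus colon was -0.76 (95% interval -1.50 to -0.03, adjusted p = 0.272). The other tested probe sets were dim, with 103957_at at 17.3 to 54.6 and below the median of its array in all 12 samples, and 139035_at at 23.2 to 159, above that median in 3 samples.

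The Tfrc control probe sets cover the 3' end, the middle and the 5' end of the transcript and were not tested. The 3' one had a range of 27.1 to 81.8 (set A), 62.2 to 206 (set B) and 178 to 336 (set C), and was above the array median in 2, 10 and 12 of the 12 samples. The middle and 5' ones read 1.6 to 75.8 over the 3 sets and were below the array median in all samples.

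Hmox1 encodes haem oxygenase 1, the inducible enzyme that releases iron from haem, and it too passed the test in no comparison. On 160101_at (set A) it read 309, 436 and 380 in the duodenum, 465, 281 and 395 in the jejunum, 287, 552 and 372 in the ileum and 340, 403 and 320 in the colon. All segments overlapped. The difference was 0.00 for duodenum minus jejunum (95% interval -0.51 to 0.51), -0.07 for duodenum minus ileum (interval -0.58 to 0.44) and 0.07 for duodenum minus colon (interval -0.44 to 0.58). The other probe set, 164445_i_at (set B), read 2.5 to 85.9 and was below its array median in every sample, with an adjusted p of 0.449 for any difference.

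Most measured markers of exocrine pancreas and of Brunner glands and stomach were also high in the duodenal samples. Against each other segment, 6 of 7 pancreas markers and 3 of 5 Brunner gland and stomach markers were called as higher in the duodenum. The summed intensity of 7 measured of 8 listed exocrine pancreas markers was 82720 to 83890 in the duodenum, against 641 to 1147 in the jejunum, 752 to 1518 in the ileum and 852 to 2359 in the colon. The 5 measured of 7 markers of Brunner glands and stomach summed to 49790 to 67330 in the duodenum and to 325 to 675 elsewhere. Their part in the duodenal excess of Cybrd1, Slc11a2, Slc40a1 and Fth1 was not tested. No marker was at exactly 0, but Prss2, pancreatic trypsinogen, averaged 11420 in the duodenum and 8.17 in the jejunum.

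Markers of absorptive cells differed between segments as well. The 7 measured of 8 enterocyte markers summed to 22620 to 26340 in the duodenum, 36560 to 40550 in the jejunum, 32500 to 40390 in the ileum and 11850 to 13300 in the colon. The brush border enzymes Anpep and Lct had much of that spread, with Anpep means of 3974 in duodenum and 12770 in jejunum, whereas Krt20 had means of 8748 in duodenum and 7963 in jejunum. Of the 7 markers 1 was called for duodenum minus jejunum, as lower in the duodenum. For duodenum minus ileum 3 were called (1 higher, 2 lower) and for duodenum minus colon 5 (4 higher, 1 lower). Cdx1 ran against the sum, at 897 to 1111 in the colon and 292 to 353 in the duodenum. The part of these markers in the iron gene results was not tested. For the colonic Slc40a1 signal, the sum of 6 smooth muscle markers was 3988 to 9865 in the other segments and 23260 to 27420 in the colon, and its part in that signal was not tested. Macrophages also make ferroportin, and the 10 macrophage markers summed to 2820 to 3247 in the duodenum, 2738 to 3493 in the jejunum, 3710 to 5060 in the ileum and 2292 to 3767 in the colon. Members of that list went different ways, with Cd14 at 673 to 1229 in the other segments and 1284 to 2391 in the colon, and Lyz2 at 969 to 2353 in the other segments and 246 to 396 in the colon, and their part was not tested. The 4 measured of 5 B and plasma cell markers summed to 2306 to 3116 in the duodenum, 954 to 1606 in the jejunum. Their ileal sums were 2420 to 2651 and their colonic sums 1349 to 1737. These markers also went different ways. Cd79b was highest in ileal pools, at 303 to 469, beside 103 to 131 in duodenal ones. Cd79a was highest there too, at 382 to 548, beside 160.5 to 280.5 in duodenal pools. Duodenal values of Ms4a1 overlapped every other segment. Jchain, the joining chain of secreted antibodies, read 1722 to 2561 in duodenal pools, beside 542 to 1057 in jejunal ones. Ileal pools read 1329 to 1738 and colonic ones 917 to 1037. Jchain was called as higher in the duodenum than in jejunum (1.46, adjusted p = 0.00241) and colon (1.13, adjusted p = 0.00422). It had no call against the ileum, and the part of these markers was not tested. Red cell markers (3 measured of 7), proliferating cell markers (8 of 9) and hepatocyte markers (all 6) had 0 called differences involving the duodenum in limma, and 3 of 9, 1 of 24 and 1 of 18 at an unadjusted p below 0.05.

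Other genes of iron handling were read from 8 lists of carriers, chaperones, sensors, the hepcidin system, plasma carriers, haem synthesis and breakdown, and mitochondrial iron. Of 83 listed genes 76 were measured, each by 1 probe set, and 7 (9.21%) differed among segments, beside 8.82% of all probe sets. That share is close to the background. Called in the duodenum comparisons were 1 gene against jejunum (1.32%), 3 against ileum (3.95%) and 4 against colon (5.26%). The median difference over the 76 was 0.00, -0.03 and 0.06 in those comparisons.

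Ncoa4, the receptor that brings ferritin to the lysosome, was called as higher in the duodenum than in every other segment. On 97843_at (set A) it read 2155, 2824 and 3276 in the duodenum, 357, 294 and 184 in the jejunum, 268, 161 and 268 in the ileum and 362, 346 and 474 in the colon. No duodenal pool overlapped another segment, and in the fit with all samples no difference among jejunum, ileum and colon was called. The ileum lay below the colon without overlap, and ileum minus colon was -0.75 (adjusted p = 0.173). With samples of high 18S signal alone it was -1.20, with 1 ileal sample. The difference was 3.26 ± 0.25 for duodenum minus jejunum (9.89-fold, adjusted p = 2.72e-06), 3.49 ± 0.25 for duodenum minus ileum (adjusted p = 6.12e-07) and 2.75 ± 0.25 for duodenum minus colon (adjusted p = 3.51e-06), and all were called in all 22 alternatives. A dim Ncoa4 probe set, 161381_r_at, had a mean of 22.2 and no call, with duodenum minus jejunum at -0.01.

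Slc46a1, first described as a haem carrier and known as the proton-coupled folate transporter, was high in the duodenum and in the jejunum. It read 3572, 2705 and 2776 in the duodenum, 1406, 3260 and 2755 in the jejunum, 93, 126 and 78.9 in the ileum and 53.2, 15.3 and 51.1 in the colon. The upper and lower pairs of segments did not overlap. Duodenum minus ileum was 4.73 ± 0.32 (30.3-fold, adjusted p = 3.47e-07) and jejunum minus ileum was 4.37 ± 0.32 (24.9-fold, adjusted p = 2.88e-06), while duodenum minus jejunum was 0.36 (95% interval -0.33 to 1.05).

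The metal carriers Slc39a14 (ZIP14) and Slc39a8 (ZIP8) differed in opposite directions at the colon. Slc39a14 on 112445_at averaged 1276 ± 169 in the duodenum, 967 ± 161 in the jejunum, 1007 ± 133 in the ileum and 574 ± 149 in the colon (SD, n = 3 each), with duodenum minus colon at 1.15 ± 0.22 (adjusted p = 0.00295). Of its other probe sets, 106538_at gave 0.90 (adjusted p = 0.0506) and 105513_at 0.45 (adjusted p = 0.699) for the same difference. Slc39a8 on 97442_at read 29.2, 30.2 and 36.7 in the duodenum, 47.6, 6.5 and 9.4 in the jejunum, 41.5, 28.5 and 54.2 in the ileum and 129, 106 and 98.1 in the colon. The 3 colonic pools stood above all others. Duodenum minus colon was -1.40 ± 0.38 (adjusted p = 0.0412), and the second probe set, 112237_at, gave -1.96 (adjusted p = 0.0371). The call on 97442_at held in 12 of 22 alternatives, and its adjusted p was 0.0512 to 0.145 without ileum 1, ileum 3 or any 1 duodenal or colonic pool.

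Slc25a37, mitoferrin 1, which carries iron into mitochondria, was called as higher in the ileum than in duodenum and colon. Jejunum minus ileum was not called. It read 388, 276 and 103 in the duodenum, 547, 586 and 326 in the jejunum, 1221, 711 and 1669 in the ileum and 367, 321 and 461 in the colon on 163354_at (set B). The ileum lay above all other samples. Duodenum minus ileum was -2.25 ± 0.40 (adjusted p = 0.00507) and ileum minus colon was 1.54 ± 0.40 (adjusted p = 0.0462), and the set B probe set 116125_at gave -2.50 (adjusted p = 0.0207) and 2.28 (adjusted p = 0.0249). The set C probe set 170276_at gave -0.69 (adjusted p = 0.737) and -0.14 (adjusted p = 0.973). With samples of high 18S signal alone the first difference was -1.59 (adjusted p = 0.27), with 1 ileal sample. Ileum minus colon held in 7 of 22 alternatives, with an adjusted p of 0.0536 to 0.209 without ileum 1 or 3, jejunum 1 or 2, duodenum 2 or any 1 colonic pool.

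The remaining genes with a call among the 4 segments were Fdx1, a mitochondrial ferredoxin, and Hjv, hemojuvelin, a co-receptor of the hepcidin pathway known from the liver. Fdx1 averaged 960 ± 178 in the duodenum, 373 ± 129 in the jejunum, 499 ± 238 in the ileum and 885 ± 173 in the colon, with jejunum minus colon at -1.24 ± 0.33 (adjusted p = 0.0238, and 0.0711 to 0.106 without jejunum 1 or 3 or colon 1 or 3). With the 18S class as a block Fdx1 was also called for duodenum minus jejunum (1.98, adjusted p = 0.00432), duodenum minus ileum (1.66, adjusted p = 0.00846) and ileum minus colon (-1.54, adjusted p = 0.00792), and samples of high 18S signal alone called the same 3 (adjusted p = 0.0301, 0.00557 and 0.00394). Hjv on 165337_i_at was dim and averaged 11 ± 4.42, 99.5 ± 38.7, 54.2 ± 46.9 and 10.9 ± 10.9 in the same order, with jejunum minus colon at 2.12 ± 0.49 (adjusted p = 0.011, 0.0558 to 0.0564 without colon 2 or 3, and 0.114 with samples of high 18S signal alone). Its other probe set, 109958_at, gave 0.85 (adjusted p = 0.249). Fdx1 was read on 92587_at, and its other probe set, 160062_i_at, is not described here. Jejunum minus colon was called for 9 of the 76 genes (11.8%), 4 higher and 5 lower in the jejunum, beside the 9.19% of all probe sets. The 4 were Slc46a1, Slc39a14, Hjv and Urod, and the 5 were Slc39a8, Egln1, Smad7, Nfs1 and Fdx1.

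The iron sensing list holds 11 genes, among them the iron regulatory proteins Aco1 and Ireb2 and the hypoxia-inducible factors, and 0 of its 33 differences involving the duodenum were called in limma, with 7 at an unadjusted p below 0.05. Epas1 stands in that list by its dim set A probe set, and its brighter set B probe set, described below, was called in the same fit. On it, duodenum minus ileum was 1.35 and duodenum minus jejunum was 1.29. That set B probe set was picked for its likeness to Slc40a1, among probe sets already called among segments. Its calls are therefore no separate support. In the same list Egln1, an oxygen-sensing prolyl hydroxylase, was lower in the jejunum than in the colon (jejunum minus colon -1.06 ± 0.24, adjusted p = 0.0109). This was read on 95468_at. Its other probe sets are not described here, and the call was not followed through the alternatives. Hepcidin itself, Hamp, read 5.2 to 18.1 in all samples. The plasma carriers (7 measured of 7) and the haem breakdown genes (3 of 4) had 0 called differences in limma, with 2 of 42 and 1 of 18 at an unadjusted p below 0.05.

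**Figure D3:**
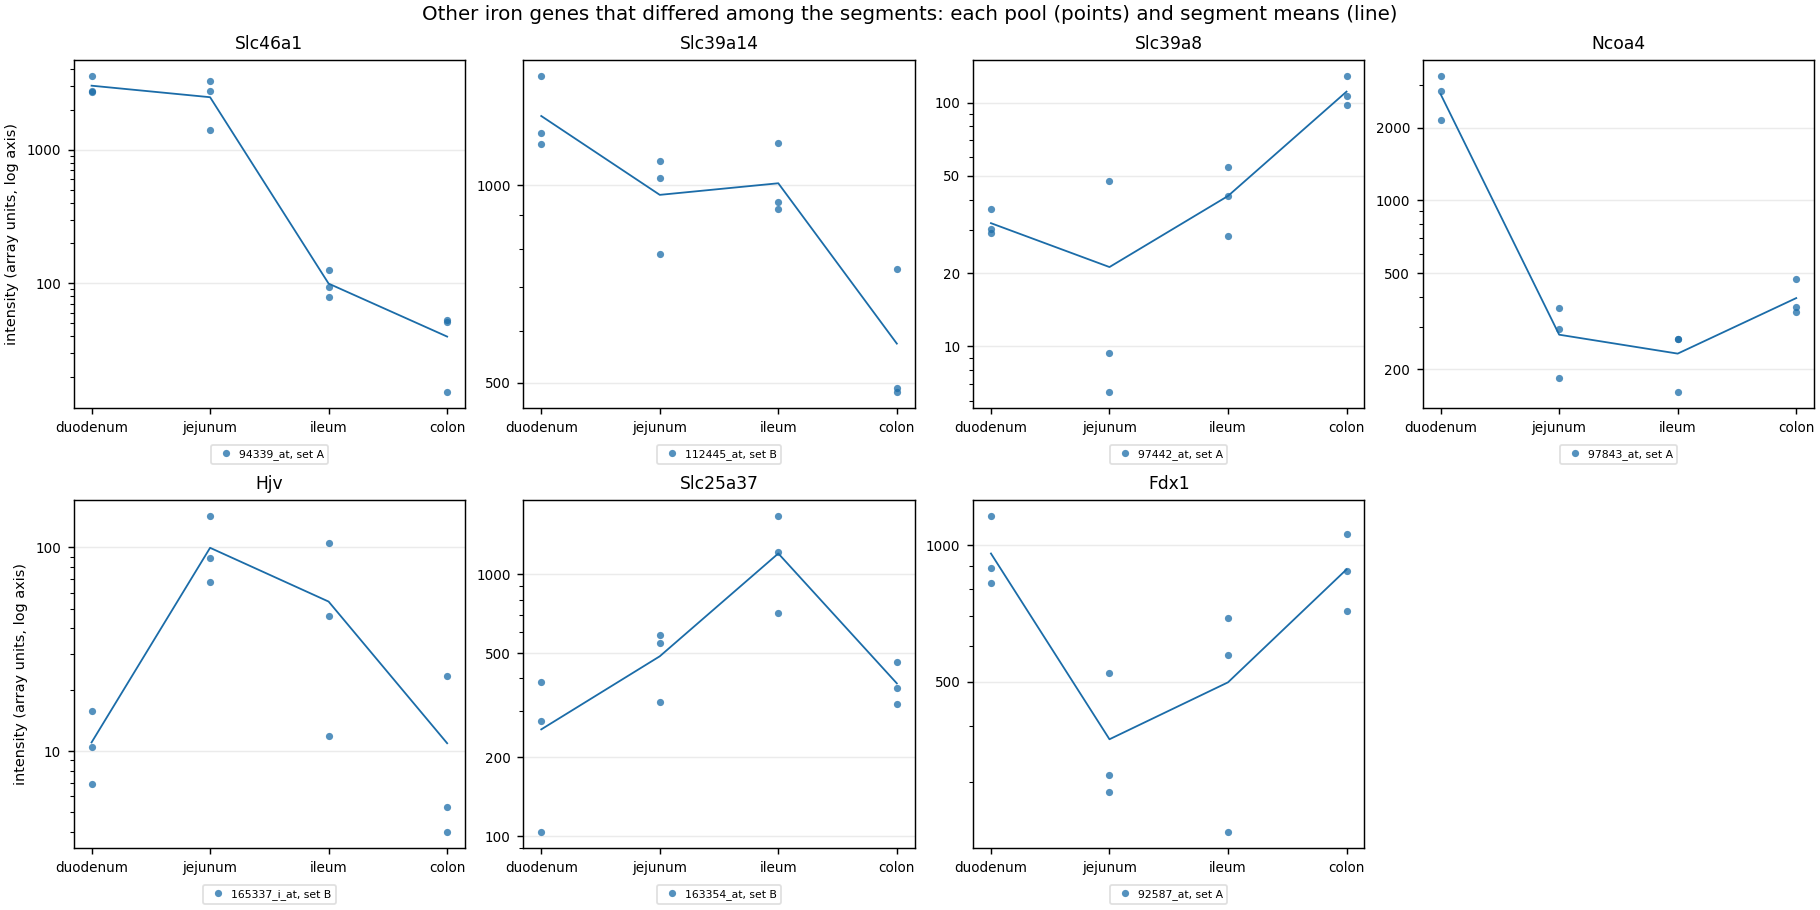
Intensity (array units, log axis, scaled per panel) of the 7 other iron genes called among the 4 segments, with points for the 3 pools and a line through segment means. Ncoa4 is high in the duodenum, Slc46a1 in duodenum and jejunum, Slc25a37 in the ileum and Slc39a8 in the colon, while Fdx1 is high at both ends.

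The genes most like Slc40a1 were found among 808 candidates of set B by Pearson correlation over the 12 samples. Epas1, which encodes hypoxia-inducible factor 2 alpha, was nearest on 114665_at (r = 0.92), followed by Slc16a9, a monocarboxylate carrier (r = 0.88), Ahcyl2 (r = 0.86), Atrn, attractin (r = 0.85), and Vkorc1l1 (r = 0.83). These correlations describe 12 samples in 4 segments on the same arrays, and the candidates had been limited to genes that differ among segments. Epas1 read 2128, 1707 and 1540 in the duodenum, 832, 822 and 541 in the jejunum, 845, 542 and 711 in the ileum and 1217, 1030 and 1337 in the colon. As with Slc40a1, the duodenum was highest and the colon next, but here jejunum and ileum overlapped.

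The second Epas1 probe set, 102698_at on set A, averaged 64.8 in the duodenum, 27.7 in the jejunum, 37 in the ileum and 63.6 in the colon and was not called (adjusted p = 0.232 for any difference). Slc16a9 averaged 1719 ± 177 in the duodenum, 176 ± 24.5 in the jejunum, 96.1 ± 23.9 in the ileum and 373 ± 138 in the colon (SD, n = 3 each). Both genes were chosen for this likeness, so their set B levels and calls are a description and no separate test.

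**Figure D4:**
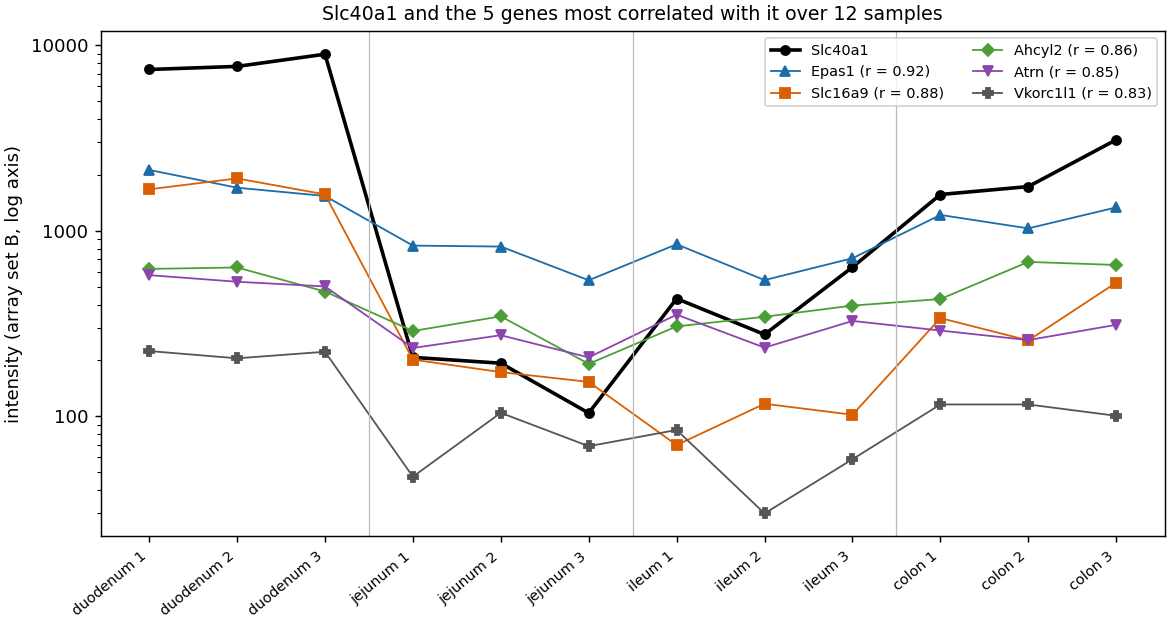
Intensity (set B, log axis) of Slc40a1 and the 5 genes most correlated with it, in each of the 12 samples, ordered by segment from duodenum to colon. Slc40a1 ranges from 104 in a jejunal pool to 8952 in a duodenal one, and Epas1 and Slc16a9 share its high duodenum and raised colon over a narrower range.

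Cybrd1 on 140417_at was matched among 125 candidates of set C by Ugt2b38 (r = 0.96), Cpa1 (r = 0.94) and Gkn3 (r = 0.93). Cpa1, pancreatic carboxypeptidase, averaged 17140 ± 5860 in the duodenum and 32 ± 8.56 in the jejunum, and Gkn3, a gastrokine, averaged 32250 ± 13100 in the duodenum and 91 ± 70.9 in the jejunum. Both are among the gland markers above, and their part in the Cybrd1 result was not tested. For Heph, Tfrc and Hmox1 this search cannot tell whether a close match exists. Its candidates were limited to probe sets called among segments, and none of these genes was called. Among 1493 candidates of set A the nearest were Mocs2 for Heph (r = 0.71), Mcam for Tfrc (r = 0.76) and Pfn1 for Hmox1 (r = 0.60).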

How the data were processed

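For every probe set and array the authors deposited 1 linear intensity, scaled so that the mean without the highest and lowest 2% was 200 to 200.2 on each array, as the values show. The software is not given in the sources used here, and no detection calls were used. Sets A, B and C had separate fits in limma 3.58.1 (R 4.3.3) on log2(intensity + 16), with 1 mean per segment over 12 arrays, moderated variances with an intensity trend, 2-sided tests and Benjamini-Hochberg adjustment over 36701 probe sets of the 3 sets together. The added 16 shrinks the differences of dim probe sets. A single symbol stood beside 29131 of those probe sets, several beside 724 and no symbol beside 6846, and 29044 could be tied to a gene in use today. The 198 control probe sets stayed out of the tests.

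Members, lists and tests were chosen with earlier results of these data known. For the other iron lists a gene is read from 1 probe set (set A before B before C, then the brightest), and named are list members called among segments, at most 6 a list by adjusted p, and any gene that a count of 5 or fewer covers. Aco1, Ireb2, Hamp and the second probe sets were named outside this rule. Genes of like pattern are the 3 (5 for Slc40a1) with the highest Pearson correlation with a member's brightest probe set, among probe sets of its array set called among segments and brighter than the median. Alternatives were 2 offsets, a filter on low values, median centring, quantile normalization, no trend, only the arrays compared, the 18S class as a block, only samples with high 18S signal, the replicate number as a block, and leaving out each pool. The procedure was tested on simulated data.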

Additional observations from a re-analysis of the deposited data

How the results depend on the processing

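No member difference called at first was reversed in any alternative. Of 29 called member differences, 17 remained called with samples of high 18S signal alone, 22 to 29 in the other settings, and 23 without duodenum 3. With high 18S signal alone, the number of iron gene probe sets called fell to 3 for duodenum minus jejunum, 5 for duodenum minus ileum, 0 for jejunum minus ileum and 1 for jejunum minus colon. Jejunum minus ileum also had 0 calls with an offset of 64, with quantile normalization, without an intensity trend and with only the arrays compared. Ileum minus colon had 1 call after median centring, without an intensity trend and when 18S class was a block, and jejunum minus colon had 1 in the last of these. Leaving out 1 pool gave 5 to 7 calls for duodenum minus jejunum, 7 to 9 for duodenum minus ileum, 6 to 8 for duodenum minus colon, 0 to 1 for jejunum minus ileum, 1 to 2 for jejunum minus colon and 1 to 3 for ileum minus colon. The cause was not tested.

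Over all probe sets, duodenum minus jejunum had 339 calls, and 213 without an intensity trend, 180 with only the arrays compared, 208 with the 18S block, 97 with high 18S signal alone and 184 to 854 on leaving out 1 pool (duodenum 2 212, duodenum 3 217, jejunum 1 854, jejunum 3 184). Jejunum minus ileum had 1020, and 664, 376 and 67 without a trend, with only the arrays compared and with high 18S signal alone, and 384 to 1410 on leaving out 1 pool (jejunum 2 657, jejunum 3 472, ileum 1 503, ileum 3 384). With high 18S signal alone duodenum minus ileum had 383 against 671 and jejunum minus colon had 1557 against 3371. Leaving out 1 pool gave 401 (ileum 3) to 763 calls for duodenum minus ileum. Median centring moved the median of all probe sets to 0.11 for jejunum minus ileum and 0.12 for jejunum minus colon.

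The labels say that the mice were divided into 3 pools but not that a number marks the same mice in each segment. Deviations of same-numbered samples had correlations of -0.36 to 0.36 (set A), -0.18 to 0.19 (B) and -0.26 to 0.22 (C). They were over 0.1 for 5, 5 and 4 of 18 pairs, beside 9, 3 and 8 of 36 pairs with different numbers. The share was thus higher for same-numbered pairs on set B and close on sets A and C. On the 3 sets 6, 9 and 6 of 12 samples correlated best with their own number. With the replicate number as a block, jejunum minus ileum and ileum minus colon had 1 member call each, and 25 of the 29 member differences kept theirs. The 4 that did not were Fth1 differences, 94794_at for duodenum minus jejunum (adjusted p = 0.0804) and ileum minus colon (0.0803), 137155_f_at for duodenum minus ileum (0.0889) and 109819_f_at for jejunum minus ileum (0.0659).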
